A study of Homo sapiens with 12 samples.

Results

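Expression of 10 squamous differentiation and barrier genes was examined in 12 RNA sequencing libraries of NCI-H1975 and HCC827, established human lung adenocarcinoma lines with activating EGFR mutations. The genes were SPRR1A, SPRR1B, SPRR3, IVL, TMPRSS11E, C19orf33, KLK10, LYPD3, TGM1 and GRHL3. They were taken by symbol from the deposited tables, and all 10 were present among the 16426 genes held by both tables. They were selected on their differences from the controls in these same libraries, so those differences are given as descriptions, without p-values. One experiment treated each line with the solvent DMSO or with the small molecule 18E at 2.5 µM or 5 µM, with 24 h recorded for the 18E samples. The other transfected each line with a control siRNA (siCON) or with siDYN-1 or siDYN-2, with 48 h recorded for the siDYN samples. Each line stands for 1 tumour grown in culture. There was 1 library per line and treatment, so an effect can be compared only between the lines, the doses and the siRNAs, and cultures were not repeated within a line.

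Values are FPKM (fragments per kilobase, scaled to library size), and differences are of log2(FPKM + 1), treated minus the control of the same line and table. The added 1 keeps differences of genes near 0 small. Total FPKM per library ran from 486409 to 685680, read totals are unknown, and 534 to 2212 genes per library were listed at 0. DYNC1LI1, which encodes the dynein light intermediate chain LIC1 named in the series title, measured 21.5% and 12.8% of its siCON level with siDYN-1 and siDYN-2 in NCI-H1975. In HCC827 it measured 14.9% and 7.49%.

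In stratified squamous epithelium, involucrin (IVL) and the small proline-rich (SPRR) proteins are laid down under the plasma membrane and crosslinked by transglutaminases such as TGM1 into the cornified envelope. Secreted and membrane-bound serine proteases, among them the kallikreins, process barrier proteins, and Grainyhead-like factors such as GRHL3 switch on barrier genes. Simple epithelia of the lung hold little of this programme, and its genes are used as markers of squamous differentiation. IVL and the SPRR genes lie together in the epidermal differentiation complex on chromosome 1.

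The lines were first set beside markers of squamous and lung epithelium. Simple epithelial markers (EPCAM, CDH1, keratins 7, 8, 18 and 19, and CLDN4) summed to 4033 to 10170 FPKM in every library. Markers of squamous and basal cells summed to 1.64 to 6.96 FPKM in NCI-H1975 and to 13.05 to 65.1 FPKM in HCC827. At most 5 of the 9 squamous markers reached 1 FPKM in a library. In HCC827 most of that sum was KRT14 and SOX2, and along the 18E doses KRT14 was 57.0, 37.1 and 10.7 FPKM while TP63, the factor that defines squamous basal cells, was 1.43, 1.32 and 7.89 FPKM. KRT5 and KRT6A, keratins of basal and stressed squamous cells, were highest in that same 5 µM library, at 1.1 and 1.77 FPKM. In NCI-H1975 TP63 was 1.32 FPKM in siCON, 4.64 in siDYN-1 and 2.06 in siDYN-2. From siCON to siDYN-2 the squamous markers summed to 2.06, 6.96 and 2.92 FPKM in NCI-H1975 and to 20.0, 18.4 and 13.05 FPKM in HCC827. The fitted log2 changes with siDYN were 0.71 ± 0.25 for TP63, -0.08 ± 0.28 for KRT14 and -0.15 ± 0.18 for SOX2. The desmosomal genes DSG3 and PKP1 were at or below 0.25 and 0.04 FPKM throughout, and PKP1 was listed at 0 in some libraries. Blood, endothelial and stromal markers summed to at most 14.8 FPKM, and CD14 was the most abundant of them in NCI-H1975. Markers of lung adenocarcinoma and alveolar cells, of which 6 of 7 were in the 18E table and 7 of 7 in the siRNA table, summed along the 18E doses to 46.5, 21.7 and 17.4 FPKM in NCI-H1975 and to 308, 301 and 140 FPKM in HCC827. From siCON to siDYN-2 they summed to 33.1, 30.8 and 23.7 FPKM in NCI-H1975 and to 341, 450 and 510 FPKM in HCC827. NKX2-1, the lung lineage factor, had fitted log2 changes of -1.74 ± 0.28 at 5 µM (limma adjusted p = 0.1) and -0.69 ± 0.20 with siDYN (limma adjusted p = 0.114). It was below its control in all 8 treated libraries. All 3 fitted markers of that list had negative changes at 5 µM. With siDYN the other 2 fitted markers were positive, NAPSA at 0.51 ± 0.23 (limma adjusted p = 0.208) and SFTA2 at 0.45 ± 0.24 (limma adjusted p = 0.27). The name of the gene group therefore describes known roles of the genes and not the type of these cells. Whether TP63 or NKX2-1 has a part in the values below was not tested.

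The 4 epidermal complex genes span 124 kb of chromosome 1 on the plus strand (GRCh38, GENCODE 29): IVL at chr1:152908545-152911886, SPRR1A at chr1:152985231-152985500, SPRR3 at chr1:153001747-153003856 and SPRR1B at chr1:153031202-153032900. Their promoters are shown because these neighbours were compared as a group and because they share a short motif. The sequences are the 250 bases before the transcription start from RefSeq on GRCh38.p14, and capitals mark matches to the AP-1 letters TGANTCA, the site bound by FOS and JUN dimers.
IVL (chr1:152908296-152908545, plus strand): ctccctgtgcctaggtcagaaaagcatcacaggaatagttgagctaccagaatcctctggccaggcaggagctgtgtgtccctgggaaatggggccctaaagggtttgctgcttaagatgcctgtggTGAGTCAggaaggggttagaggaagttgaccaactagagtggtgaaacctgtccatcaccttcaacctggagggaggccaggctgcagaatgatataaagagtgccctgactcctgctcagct
SPRR1A (chr1:152983831-152984080, plus strand): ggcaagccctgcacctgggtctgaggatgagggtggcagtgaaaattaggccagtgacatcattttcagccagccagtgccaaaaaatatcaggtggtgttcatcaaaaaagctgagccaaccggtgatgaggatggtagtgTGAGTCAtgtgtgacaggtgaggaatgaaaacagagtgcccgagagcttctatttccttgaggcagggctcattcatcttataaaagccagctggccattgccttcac
SPRR3 (chr1:153001499-153001748, plus strand): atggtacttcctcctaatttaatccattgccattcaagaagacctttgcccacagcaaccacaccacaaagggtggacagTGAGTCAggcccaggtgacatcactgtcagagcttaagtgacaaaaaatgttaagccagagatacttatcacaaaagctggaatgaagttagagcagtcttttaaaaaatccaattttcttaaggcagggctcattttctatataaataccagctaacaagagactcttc
SPRR1B (chr1:153030953-153031202, plus strand): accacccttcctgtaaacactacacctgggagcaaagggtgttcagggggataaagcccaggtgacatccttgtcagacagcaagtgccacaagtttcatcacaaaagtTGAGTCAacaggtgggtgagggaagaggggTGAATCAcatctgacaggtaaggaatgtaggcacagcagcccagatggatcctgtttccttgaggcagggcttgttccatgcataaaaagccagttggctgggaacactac

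All 4 of these promoters held the AP-1 letters, SPRR1B at 2 places. Counted from the transcription start, the matches began at -123 in IVL, -108 in SPRR1A, -170 in SPRR3, and -141 and -111 in SPRR1B. The letters read the same on both strands apart from the free middle base, and both strands were searched in windows that ran 50 bases past the start. Among 35116 RefSeq promoters of that length, 7.71% held a match. Of the 8 genes with a promoter entry, the other 4, TMPRSS11E, KLK10, LYPD3 and GRHL3, had no match in their windows. TATAAA was found in 4 of the 8, close to the start in IVL, SPRR1A and SPRR3 and far upstream in TMPRSS11E, against 11.5% of all promoters. The Grainyhead-like letters AACNNGTT were found in 0 of the 8, against 3.52% of all promoters. The shares of all promoters count single windows, whereas the 8 genes had 10 windows, since KLK10 and GRHL3 had 2 each. A match describes letters only and does not show binding.

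**Figure D1:**
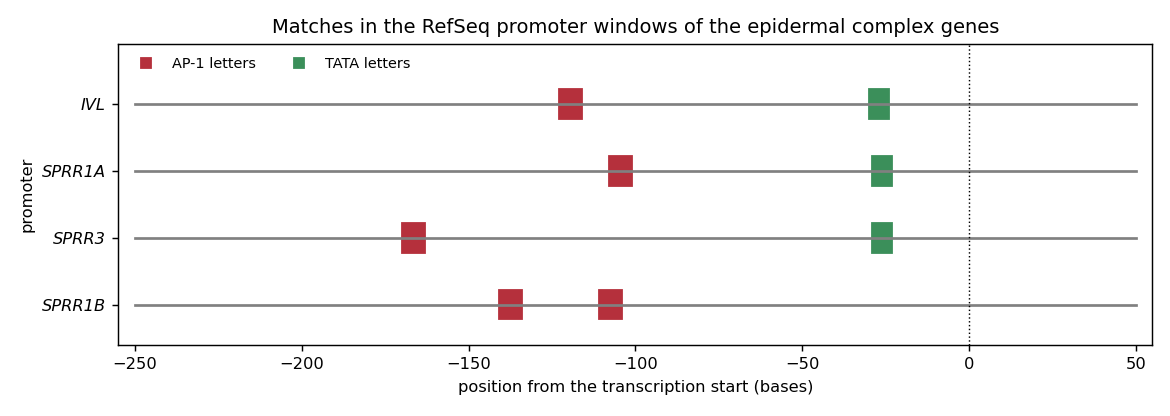
Positions of AP-1 letters (red) and TATAAA (green) in the promoter windows of the 4 epidermal complex genes, in bases from the transcription start (dotted line). AP-1 letters begin between -170 and -108 in all 4 windows, and TATAAA lies near the start in 3 of them.

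Involucrin is the glutamine-rich scaffold on which the cornified envelope is first assembled. In NCI-H1975 IVL was 2.73 FPKM with DMSO, 1.99 with 2.5 µM 18E and 2.7 with 5 µM 18E. In the same line the siCON, siDYN-1 and siDYN-2 libraries held 3.05, 5.95 and 22.2 FPKM. In HCC827 it was 0.68, 0.82 and 0.43 FPKM with DMSO, 2.5 µM and 5 µM 18E, and its siRNA libraries, in the order above, held 0.32, 0.41 and 1.83 FPKM. At 2.5 µM and 5 µM 18E IVL was 0.729 and 0.989 times DMSO in NCI-H1975, and 1.21 and 0.632 times in HCC827. IVL was highest with siDYN-2 in both lines. The siDYN-2 level was 7.29 times siCON in NCI-H1975 and 5.72 times in HCC827. With siDYN-1 it was 1.95 and 1.28 times siCON. The difference in log2(FPKM + 1) was 1.74 larger with siDYN-2 than with siDYN-1 in NCI-H1975 and 1.01 larger in HCC827.

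SPRR1B, a crosslinked envelope precursor also known from airway epithelium undergoing squamous change, was above its control in all 8 treated libraries. In NCI-H1975 it was 0.74 FPKM with DMSO, 1.33 with 2.5 µM and 1.23 with 5 µM 18E, and the siCON, siDYN-1 and siDYN-2 libraries held 1.6, 6.76 and 2.74 FPKM. HCC827 held 4.6, 7.18 and 9.13 FPKM from DMSO to the higher dose, and 1.58, 11.9 and 10.6 FPKM from siCON to siDYN-2. The treated libraries of each line therefore lay above their own control in both experiments, with the widest gaps in HCC827 with either siRNA. The log2 differences there were 2.32 and 2.17, and the first ranked 2 among the 11718 genes tested in that library. The fitted log2 change was 0.61 ± 0.20 (SE) at 5 µM, 0.48 ± 0.20 at 2.5 µM and 1.65 ± 0.36 with siDYN. These limma errors combine the disagreement between lines, and for siDYN also between siRNAs (n = 2 lines), with variance shared from other genes.

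SPRR1A, the near copy of SPRR1B, separated the lines. In HCC827 it was 0.62, 1.74 and 4.84 FPKM with DMSO, 2.5 µM and 5 µM 18E, and 0.25, 3.48 and 5.92 FPKM from siCON to siDYN-2. Every treated HCC827 library lay above its control, by 2.81 and 7.81 times with 18E and by 13.9 and 23.7 times with the siRNAs. In NCI-H1975 SPRR1A was at 0.26 FPKM or below in all 6 libraries and listed at 0 with 2.5 µM 18E. No treated NCI-H1975 library lay above its control. The GENCODE model of SPRR1A is a single stretch of 270 bases, and 96.3% of it is identical to SPRR1B, with 25 of its 221 stretches of 50 bases shared. The model begins at chr1:152985231, downstream of the RefSeq start, whose printed promoter ends at chr1:152984080. It may therefore lack part of the transcript, and the identity covers the model only. How the authors' counting split reads between these copies is not given in the sources used here, so the level of SPRR1A is uncertain.

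SPRR3, a family member typical of oral and oesophageal epithelium, differed between the siRNAs. The siCON, siDYN-1 and siDYN-2 libraries of NCI-H1975 held 0.33, 2.14 and 0.27 FPKM. Those of HCC827 held 0.82, 4.32 and 0.7 FPKM in the same order. Both siDYN-1 libraries were high, at 6.48 and 5.27 times siCON, and both siDYN-2 libraries were slightly below siCON. Along the 18E doses NCI-H1975 held 0.91, 0.94 and 0.99 FPKM, and HCC827 held 0.6, 2.25 and 5.56 FPKM. The HCC827 values climbed with dose, and the NCI-H1975 values stayed within 0.06 of DMSO on the log2 scale. SPRR3 shared no stretch of 50 bases with either SPRR1 gene.

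**Figure D2:**
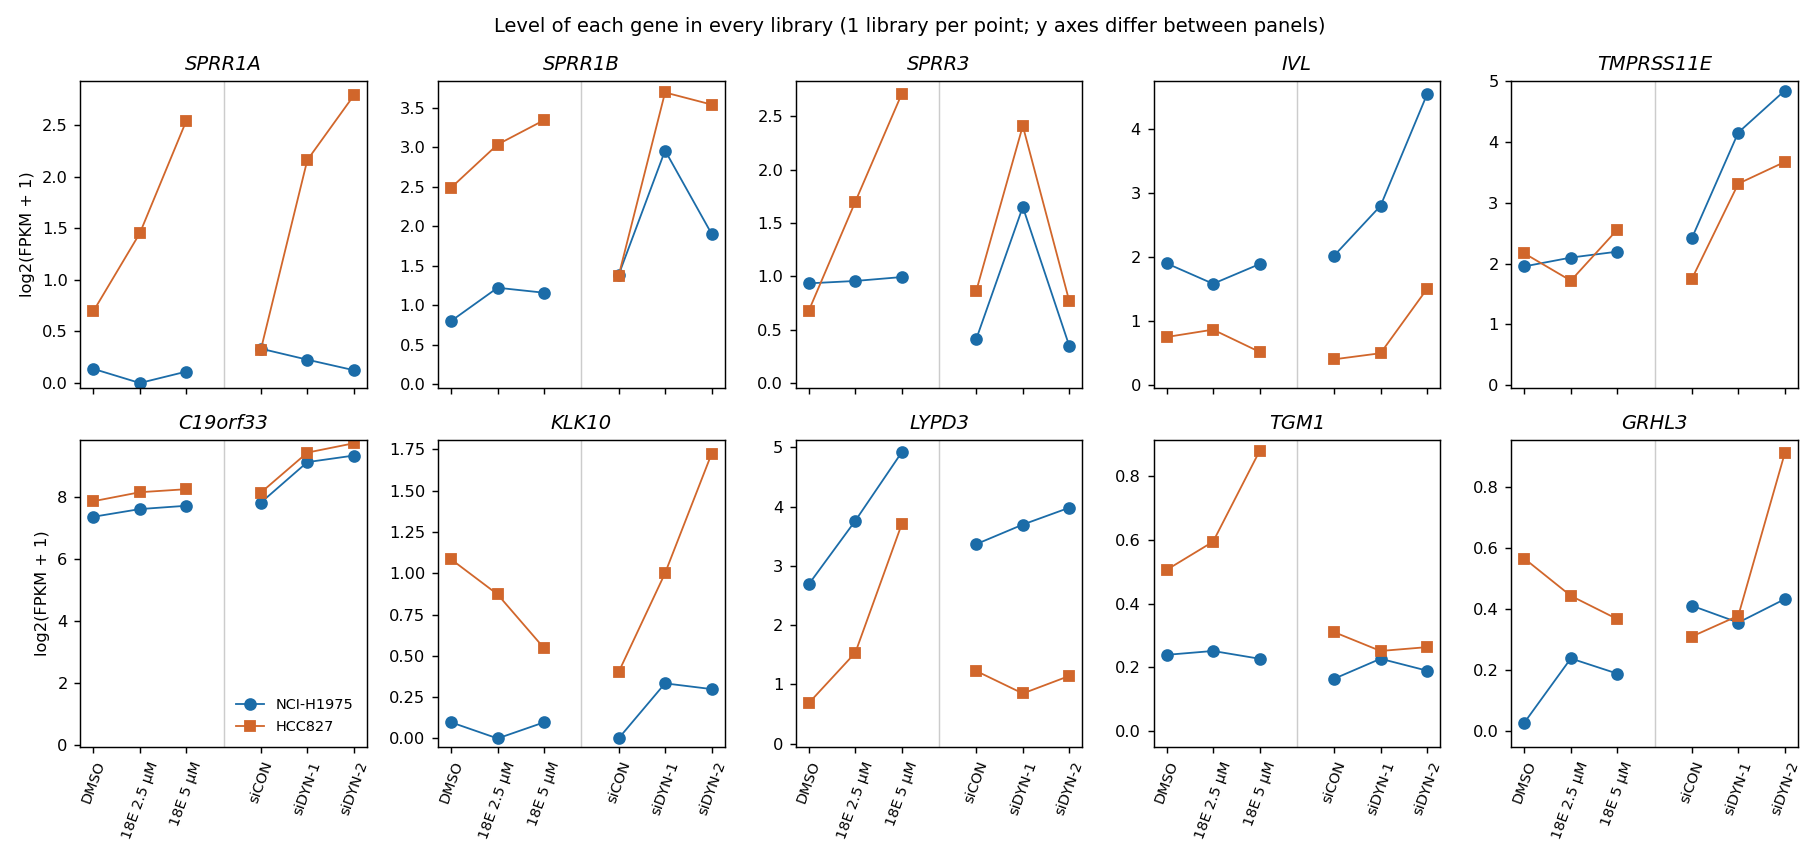
Level of each of the 10 genes as log2(FPKM + 1) in all 12 libraries, NCI-H1975 as blue circles and HCC827 as orange squares, with the 18E experiment left of the grey line and the siRNA experiment right of it. C19orf33 and TMPRSS11E are above siCON with both siRNAs in both lines, LYPD3 is above DMSO at both doses in both lines, and lines join libraries of one experiment only to guide the eye.

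TMPRSS11E encodes a membrane-anchored trypsin-like serine protease of squamous epithelium and lies at chr4:68447449-68497604 on the plus strand. NCI-H1975 held 4.33 FPKM in siCON, 16.8 in siDYN-1 and 27.7 in siDYN-2, and HCC827 held 2.35, 8.94 and 11.7 FPKM. All 4 siDYN libraries lay above both siCON libraries, by 3.88 and 6.41 times in NCI-H1975 and by 3.8 and 5 times in HCC827. The fitted log2 change was 1.92 ± 0.23 (SE). From DMSO to 5 µM 18E the gene measured 2.87, 3.28 and 3.58 FPKM for NCI-H1975 and 3.49, 2.29 and 4.89 FPKM for HCC827, where the lower dose was below DMSO and the higher dose above it. Where the tables listed TMPRSS11A, B, D and F, of the same family, they were at or below 0.11 FPKM.

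C19orf33 encodes a small protein whose gene lies just beside SPINT2, a Kunitz inhibitor of membrane serine proteases, and it was the most abundant of the 10 genes per length of transcript. It lies at chr19:38304161-38305009 on the plus strand. NCI-H1975 held 226 FPKM in siCON, 562 in siDYN-1 and 651 in siDYN-2, and HCC827 held 283, 696 and 858 FPKM. The 4 siDYN libraries lay above both siCON libraries, at 2.46 to 3.03 times the siCON of their line. The fitted log2 change was 1.43 ± 0.14. From DMSO to 5 µM 18E it measured 165, 196 and 211 FPKM for NCI-H1975 and 234, 286 and 306 FPKM for HCC827, a small step with each dose. These 4 treated libraries lay 0.25 to 0.39 above DMSO on the log2 scale. The differences depended on scaling, at 0.18 to 0.31 with equal FPKM totals and 0.14 to 0.24 with quantile normalization. SPINT2 itself was between 208 and 426 FPKM, with fitted changes of -0.03 ± 0.19 with siDYN and -0.33 ± 0.19 at 5 µM. GENCODE also holds a transcript model, AC011479.1, that overlaps C19orf33 on the same strand, and how reads of the overlap were assigned is not given in the sources used here.

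KLK10, a secreted kallikrein-related peptidase, lies at chr19:51012739-51020175 on the minus strand. HCC827 held 0.32 FPKM in siCON, 1 in siDYN-1 and 2.3 in siDYN-2, and 1.12, 0.83 and 0.46 FPKM with DMSO, 2.5 µM and 5 µM 18E. The siRNA libraries of HCC827 therefore lay above siCON, at 3.12 and 7.19 times, while its 18E libraries lay below DMSO. In NCI-H1975 KLK10 was at or below 0.26 FPKM in all 6 libraries and listed at 0 with siCON and with 2.5 µM 18E, so no fold is given. An antisense transcript, AC011473.2, overlaps KLK10 in GENCODE, and the use of strand in counting is not known. Of the other kallikrein genes listed, KLK6 was the one above 1 FPKM, at 1.74 to 8.83 FPKM.

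LYPD3 encodes a glycosylphosphatidylinositol-anchored protein of the Ly6/uPAR family found on suprabasal keratinocytes, at chr19:43460787-43465660 on the minus strand. With DMSO, 2.5 µM and 5 µM 18E it was 5.46, 12.6 and 29.3 FPKM in NCI-H1975. In HCC827 it was 0.61, 1.9 and 12.1 FPKM. Both lines showed a step at each dose, to 2.3 and 5.36 times DMSO in NCI-H1975 and to 3.11 and 19.8 times in HCC827. On the log2 scale the 5 µM library lay 1.16 above the 2.5 µM library in NCI-H1975 and 2.17 above it in HCC827. The fitted log2 change was 2.63 ± 0.28 at 5 µM and 0.96 ± 0.28 at 2.5 µM. The siCON, siDYN-1 and siDYN-2 libraries held 9.32, 12.0 and 14.8 FPKM of LYPD3 for NCI-H1975 and 1.34, 0.8 and 1.21 FPKM for HCC827. The siRNA libraries were thus above siCON in NCI-H1975 and below it in HCC827.

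TGM1, the membrane-anchored keratinocyte transglutaminase, lies at chr14:24249114-24264432 on the minus strand. It was between 0.12 and 0.19 FPKM in NCI-H1975 and between 0.19 and 0.84 FPKM in HCC827, and below 1 FPKM in all 12 libraries. Its highest value was in HCC827 with 5 µM 18E, against 0.42 FPKM with DMSO. GRHL3, the Grainyhead-like factor of barrier genes, lies at chr1:24319322-24364482 on the plus strand. It was between 0.02 and 0.35 FPKM in NCI-H1975 and between 0.24 and 0.88 FPKM in HCC827. Its highest value was in HCC827 with siDYN-2, against 0.24 FPKM with siCON. Both genes stayed below the level at which genes were fitted. GRHL3 overlaps STPG1, a gene on the opposite strand at 1.99 to 5.61 FPKM, so its low values are uncertain where strand was not used.

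**Figure D3:**
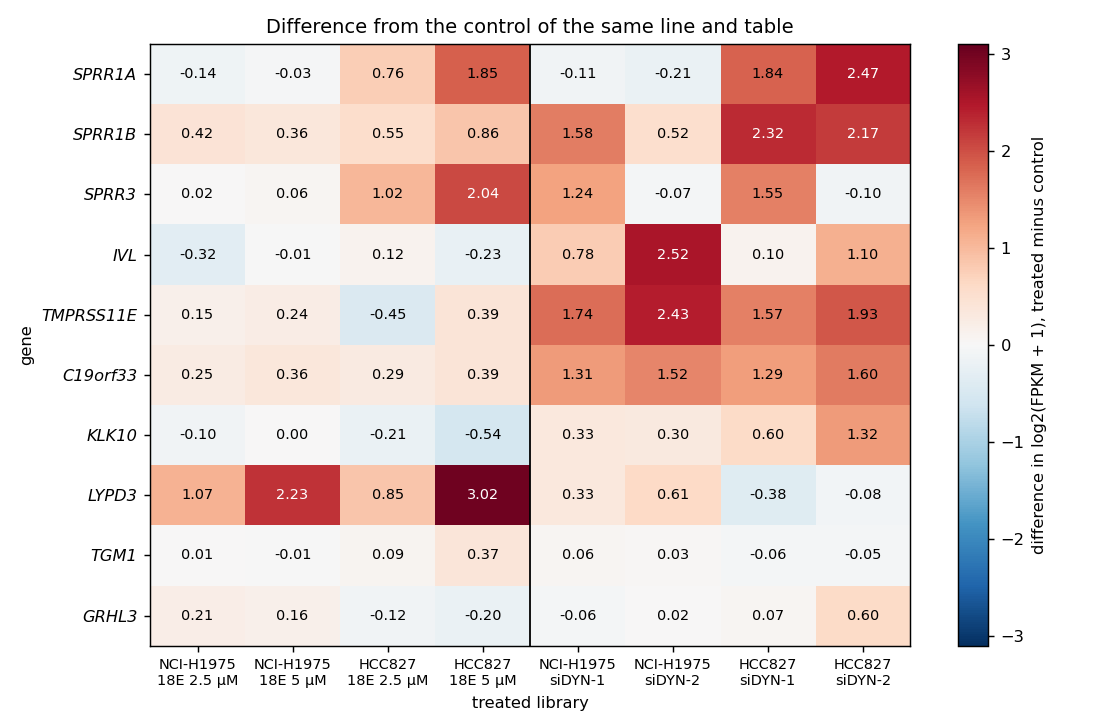
Differences of log2(FPKM + 1) from the control of the same line and table for the 10 genes (rows) in the 8 treated libraries (columns), red for higher and blue for lower, with the value in each cell. The LYPD3 row is red in the 4 columns of 18E, the TMPRSS11E and C19orf33 rows are red in the 4 columns of siDYN, and the TGM1 row is pale throughout.

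Among the 10 genes, 5 were higher in both lines at 5 µM 18E (SPRR1B, SPRR3, TMPRSS11E, C19orf33 and LYPD3), where 25.5% of the 11953 genes tested were higher in both; SPRR3 falls out with equal FPKM totals, where its NCI-H1975 difference is -0.01. At 2.5 µM it was 4 of the 7 fitted genes (SPRR1B, SPRR3, C19orf33 and LYPD3, with SPRR3 again at -0.01 in NCI-H1975 under equal totals), where 32.2% of the genes tested were higher in both. TGM1, too low to be fitted, lay 0.01 and 0.09 above DMSO at that dose. With siDYN, 5 of 10 were higher in all 4 libraries (SPRR1B, IVL, TMPRSS11E, C19orf33 and KLK10), against 24.9% of the 11718 genes tested. A difference of at least 1 in log2(FPKM + 1) in every treated library was reached by LYPD3 alone at 5 µM (1.07% of the genes tested). At 2.5 µM it was reached by none of the 10 (0.251%), although the FPKM of LYPD3 itself was over 2 times DMSO in both lines, and the count was 1 (LYPD3) with a pseudocount of 0.1. TMPRSS11E and C19orf33 reached it with siDYN (0.23% of the genes tested). The count at 5 µM was 3 without the NCI-H1975 library, and that at 2.5 µM was 1 with either treated library left out. Since these differences were known when the genes were chosen, the counts are not evidence that the group moved.

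Genes entered the fit with at least 1 FPKM in at least 2 libraries of a table, which 7 of the 10 met for 18E and 8 for the siRNAs. SPRR1A and SPRR3 met it for 18E only through HCC827 libraries with 18E, and SPRR1A, SPRR3 and KLK10 met it for the siRNAs only through libraries with siDYN, so these genes had to differ to be included. The median fitted log2 change of the genes that entered was 0.61 at 5 µM, 0.31 at 2.5 µM and 1.06 with siDYN, beside -0.09, 0 and 0.01 over all genes tested. Without the filter, over all 10 genes, it was 0.34, 0.16 and 0.83. Over all genes, limma with Benjamini-Hochberg adjustment called 1 gene at 5 µM (0.00837%), which was none of the 10, and 0 (0%) at 2.5 µM and with siDYN. At an unadjusted p under 0.05 limma gave 3205 (26.8%), 629 (5.26%) and 3042 genes (26%). With 1 library left out the limma count with siDYN reached 128 (without HCC827 with siDYN-1). The median of the fitted genes of the group at 2.5 µM was -0.04 without HCC827 with DMSO.

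In single libraries the number of fitted genes of the group that lay at least 1 above control in log2(FPKM + 1) was 1 in NCI-H1975 (1.78% of the genes tested in that library) and 3 in HCC827 (7.4%) at 5 µM. At 2.5 µM it was 1 in each line, LYPD3 in NCI-H1975 (0.678%) and SPRR3 in HCC827 (1.24%). On this scale LYPD3 and SPRR1A fell short in HCC827 at 2.5 µM, at 0.85 and 0.76, although their FPKM were 3.11 and 2.81 times DMSO. With siDYN-1 it was 4 in NCI-H1975 (2.35%) and 5 in HCC827 (1.23%), and with siDYN-2 it was 3 (4.73%) and 6 (3.78%). At 5 µM LYPD3 was the one in NCI-H1975, and LYPD3, SPRR3 and SPRR1A were the 3 in HCC827. The difference between the lines was called for 0 genes by limma in either experiment (0%), and 205 genes for 18E (1.72%) and 178 for the siRNAs (1.52%) had an unadjusted p under 0.05.

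**Figure D4:**
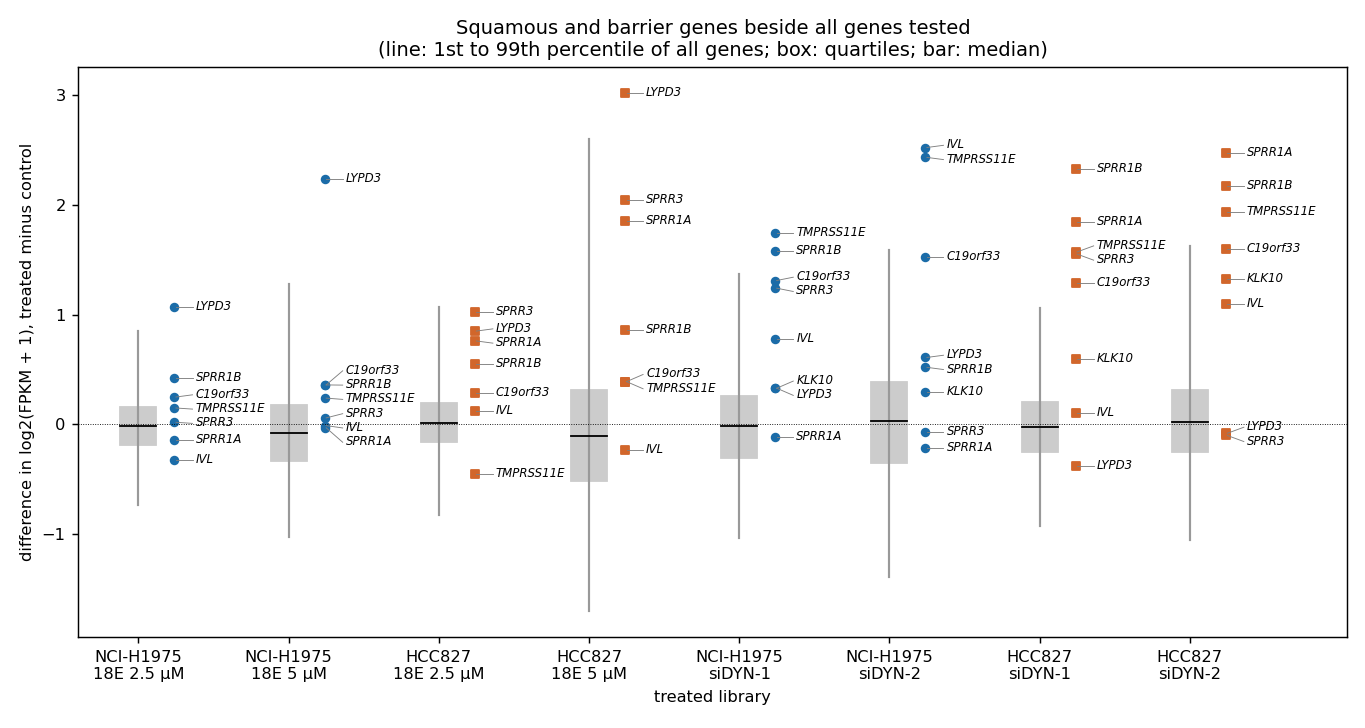
Differences of log2(FPKM + 1) of the fitted genes of the group (coloured points) beside all genes tested in each treated library (grey line, 1st to 99th percentile; box, quartiles; bar, median). The points lie mostly above the bar, LYPD3 stands highest at 5 µM in both lines, and IVL and SPRR3 change places between the siRNAs.

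The siRNAs differed in which genes of the epidermal complex were high. SPRR3 was higher with siDYN-1 than with siDYN-2 by at least 1 in log2(FPKM + 1) in both lines, as were 0.239% of the genes tested. IVL was higher with siDYN-2 by at least 1 in both lines, as were 0.452%. SPRR1B was higher with siDYN-1 by 1.05 in NCI-H1975 and by 0.15 in HCC827. SPRR1A went the other way in HCC827, higher with siDYN-2 by 0.63, and in NCI-H1975 its siDYN-2 value was 0.10 below that with siDYN-1. The SPRR2 genes, neighbours in the same complex, were also higher with siDYN-1 in both lines, SPRR2A by 0.70 and 0.57 and SPRR2D by 1.06 and 0.63. The SPRR2 copies are near-identical, so the values of each are uncertain. TMPRSS11E, C19orf33 and LYPD3 were higher with siDYN-2 than with siDYN-1 in both lines, by 0.69 and 0.36, by 0.21 and 0.30, and by 0.28 and 0.30. DYNC1LI1 was lower with siDYN-2 than with siDYN-1 by 0.59 in NCI-H1975 and by 0.62 in HCC827. TP63 was higher with siDYN-1 by 0.88 in NCI-H1975 and by 0.18 in HCC827. Whether TP63 or the depth of knockdown has a part in these gaps was not tested, and with 1 library each an off-target effect of a siRNA cannot be told apart from one on the target.

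**Figure D5:**
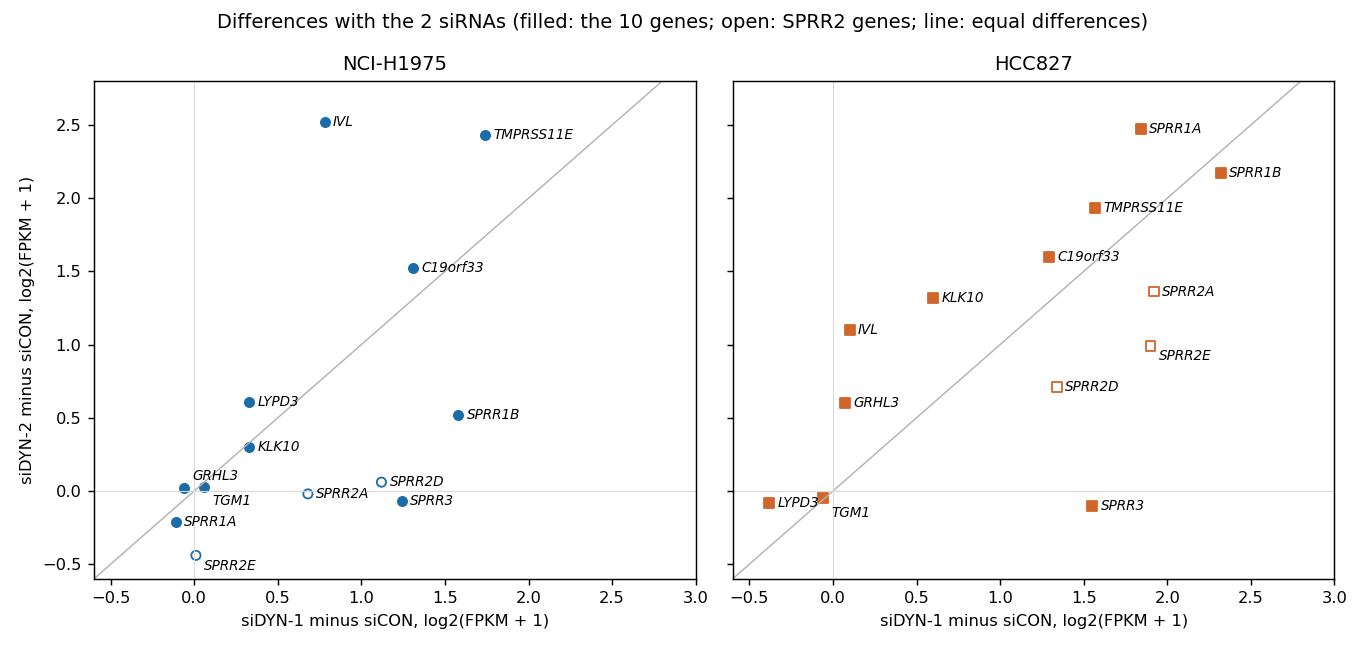
Difference from siCON with siDYN-1 (x axis) and siDYN-2 (y axis) in log2(FPKM + 1), NCI-H1975 left and HCC827 right, filled for the 10 genes and open for SPRR2 genes, with a line of equal differences. IVL lies above the line and SPRR3 below it in both lines, and TMPRSS11E and C19orf33 lie closer to it.

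Other genes of the barrier programme were read from lists without the 10 genes, and 0 passed the adjusted threshold in any list or comparison with limma. Of 8 other cornified envelope genes fitted at 5 µM, 3 were higher and 3 lower at an unadjusted p under 0.05, a level that 26.8% of all genes reached there in either direction. SPRR2D had a fitted log2 change of 1.49 ± 0.41 (limma adjusted p = 0.119) and the envelope linker EVPL of -1.09 ± 0.23 (limma adjusted p = 0.104). With siDYN 6 of 12 were higher and 0 lower at that level, which 26% of all genes reached, led by PI3, a crosslinked elastase inhibitor, at 1.28 ± 0.35 (limma adjusted p = 0.108). With 1 library left out SPRR2D at 5 µM ran from 0.82 (without HCC827 with 5 µM) to 2.17. SPRR2D was 1.58, 4.43 and 12.4 FPKM along the 18E doses in HCC827, and 0.11, 0.31 and 0.69 FPKM in NCI-H1975. It climbed with dose in both lines, at very different levels. The filter on low values applied to the lists as well, so a gene low in controls could enter only by being high when treated. SPRR2A, among the 3 higher at 5 µM (1.03 ± 0.36, limma adjusted p = 0.156), reached 1 FPKM in only 2 of the 6 18E libraries. The counts for these lists are therefore descriptions too.

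Of 12 other kallikreins, membrane serine proteases and inhibitors, 0 were higher and 3 lower at 5 µM at an unadjusted p under 0.05 (26.8% of all genes), among them ST14, the protease matriptase, at -0.82 ± 0.25 (limma adjusted p = 0.128). With siDYN 0 of 12 differed at that level, so TMPRSS11E stood beside a list whose median change was 0.25. Of 10 other Ly6/uPAR genes, 1 was higher at 5 µM at that level and the list median was -0.21, beside the LYPD3 value of 2.63 ± 0.28. With siDYN 0 of the 10 differed at that level (26% of all genes), and 2 were above siCON in all 4 libraries (24.9% of all genes). The fitted changes of the 10 ran from 0.0 to 0.98. Their median was 0.36, beside 0.01 over all genes and 0.12 ± 0.21 for LYPD3. The medians over 10 desmosome and adhesion genes were -0.36 at 5 µM and -0.33 with siDYN, beside -0.09 and 0.01 over all genes. At an unadjusted p under 0.05, 0 were higher and 5 lower at 5 µM (26.8% of all genes). With siDYN 1 was higher and 4 lower at that level (26%). CDH1, the epithelial cadherin, was at -0.92 ± 0.15 with siDYN (limma adjusted p = 0.0878). Of 10 barrier lipid enzymes fitted at 5 µM, 5 had positive and 5 negative changes. At an unadjusted p under 0.05, 4 were higher and 0 lower (26.8% of all genes). The lipoxygenase ALOXE3 was at 1.74 ± 0.40 (limma adjusted p = 0.104) and ABCA12 at -1.16 ± 0.55 (limma adjusted p = 0.233). With siDYN 2 of 11 were higher and 2 lower at that level (26%). ALOXE3 was then at 1.10 ± 0.67 (limma adjusted p = 0.333) and UGCG at -1.0 ± 0.34 (limma adjusted p = 0.138). The log2 difference of ALOXE3 was larger with siDYN-2 than with siDYN-1, by 1.6 in NCI-H1975 and 2.3 in HCC827.

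Transcription factors known from keratinocyte differentiation were measured in the same fits. At 5 µM 8 of 31 were higher and 8 lower at an unadjusted p under 0.05 (26.8% of all genes), with FOSB at 3.73 ± 1.06 (limma adjusted p = 0.122), FOS at 3.06 ± 0.60 (limma adjusted p = 0.102) and KLF4 at 1.83 ± 0.43 (limma adjusted p = 0.105). With 1 library left out FOSB ran from 1.67 to 5.79, FOS from 1.91 to 4.21 and KLF4 from 1.06 to 2.60, each lowest without HCC827 with 5 µM. With siDYN 4 of 30 were higher and 5 lower, beside 26% of all genes. CEBPB was at 1.05 ± 0.16 (limma adjusted p = 0.0876) and NOTCH2 at -0.8 ± 0.16 (limma adjusted p = 0.0973). FOS was at 0.28 ± 0.32 with siDYN, and JUN was at 1.69 ± 0.31 at 5 µM and at 0.74 ± 0.42 with siDYN. The 4 genes with AP-1 letters were at 0.91 ± 0.43 (SPRR1A), 0.61 ± 0.20 (SPRR1B), 1.05 ± 0.45 (SPRR3) and -0.12 ± 0.22 (IVL) at 5 µM. With siDYN they were at 1.00 ± 0.49, 1.65 ± 0.36, 0.66 ± 0.51 and 1.12 ± 0.53 in the same order. GRHL2, the relative of GRHL3 that is expressed in simple epithelium, was at -1.07 ± 0.18 at 5 µM (limma adjusted p = 0.1) and at -0.28 ± 0.14 with siDYN. Whether any of these factors acts on the 10 genes was not tested.

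The median difference of the 10 genes was 0.08 and 0.11 in NCI-H1975 at 2.5 µM and 5 µM, 0.20 and 0.39 in HCC827, 0.56 and 0.41 in NCI-H1975 with siDYN-1 and siDYN-2, and 0.95 and 1.21 in HCC827. Over these 8 differences, the genes with the most similar profile among 11442 were NDUFA9 (Pearson r = 0.97), SLC2A6 (0.969) and UBTD2 (0.967), and PLAU was the closest to GRHL3 (0.971). NDUFA9 ran from -0.21 to 0.20, so likeness here is of shape and not of size. GRHL3 was at or below 0.88 FPKM in all 12 libraries, so its likeness to PLAU rests on values near 0 and is uncertain. The 8 differences share 4 control libraries, which ties them together, and no p-value is given.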

How the data were processed

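The 12 libraries, 6 per experiment, came as FPKM computed by the authors, 1 deposited table per experiment, per the file headers. The submitters' processing notes list Bowtie 0.12.2, GRCh38.p12 and the mouse build mm8 and do not say what each was for. Which tool and annotation made the FPKM, and whether strand was used, is not given in the sources used here. Low values showed no clean read steps, so reads could not be recovered and sequencing depth stays unknown. Lines without all values were left out (40 of 16800 for 18E, 20 of 17462 for the siRNAs).

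FPKM was transformed to log2(FPKM + 1). Genes reaching 1 FPKM in 2 or more of the 6 libraries were fitted with limma 3.58.1 in R 4.3.3 (variance trend, cell line as block, two-sided, Benjamini-Hochberg adjusted p under 0.05), 1 fit per table. For siDYN both siRNAs formed 1 group. The scripts were tested on simulated data. The 10 genes, the lists and the tests were chosen with earlier results of these data known. Named genes were the 10, the markers and the most similar profiles. From each list up to 3 were named with the largest fitted change at 5 µM and up to 3 with siDYN. SPINT2, TMPRSS11 genes, KLK6, GRHL2, JUN and the FOS value with siDYN were named after their values were seen. Coordinates are from GENCODE 29 on GRCh38 and promoters from RefSeq on GRCh38.p14. Alternatives were a pseudocount of 0.1, no filter, quantile normalization, equal FPKM totals, no line block, each siRNA alone, and leaving out every library in turn. Leaving treated libraries out of the counts of differences of at least 1 was added after seeing the data. Protein sequences were not analysed here. A result for 1 named list gene is not reported here.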

Additional observations from a re-analysis of the deposited data

Results flagged for a closer look

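SPRR1A differed in direction between the lines in both experiments. With 2.5 µM and 5 µM 18E its log2 differences from DMSO were -0.14 and -0.03 for NCI-H1975 against 0.76 and 1.85 for HCC827. The siDYN-1 and siDYN-2 differences from siCON were -0.11 and -0.21 for NCI-H1975 against 1.84 and 2.47 for HCC827. In NCI-H1975 the gene was at or below 0.26 FPKM in every library, so the negative values there rest on levels near 0. LYPD3 moved apart with the siRNAs, by 0.33 and 0.61 in NCI-H1975 and by -0.38 and -0.08 in HCC827. The limma fit of the difference between the lines, in which doses or siRNAs stood in for replicates, called 0 of all genes tested in either experiment, and for these genes the difference was not tested on its own. Each was singled out because both treated libraries of one line lay on one side of the control and both of the other line on the opposite side.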

How the results depend on the processing

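The count of all genes called at 5 µM 18E was 1, and it was 16 with a pseudocount of 0.1 and 0 without the filter, with quantile normalization and with equal FPKM totals. With 1 library left out it ran from 34 (without HCC827 with DMSO) to 4520 (without NCI-H1975 with 5 µM), each from fewer samples. At 2.5 µM that count was 0, and 0 to 26 with 1 library left out. With siDYN it was 0, and 0 to 128, the highest without HCC827 with siDYN-1. The next medians are over the fitted genes of the group only, 7 for 18E and 8 for the siRNAs. At 2.5 µM their median fitted change ran from -0.04 (without HCC827 with DMSO) to 0.64 (without NCI-H1975 with DMSO). Its sign at that dose therefore depends on the HCC827 control. At 5 µM the median ran from 0.31 to 0.82 and with siDYN from 0.82 to 1.28, and it was 1.55 with siDYN at a pseudocount of 0.1. The number of the 10 genes at least 1 higher in log2(FPKM + 1) in every library was 1 at 5 µM and 1 to 3 with a library left out, 3 without NCI-H1975 with 5 µM. It was 0 at 2.5 µM, 1 at a pseudocount of 0.1 and 1 with either treated library left out. With siDYN it was 2 and 2 to 3 with a library left out.

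Lines served as the replicates, and no replicate block (no line term) gave 0 genes called at 5 µM, 0 at 2.5 µM and 0 with siDYN. The medians of the fitted genes of the group were then 0.61, 0.31 and 1.06, as before. Of 80 differences of the 10 genes, 3 changed sign under equal totals and 4 under quantile normalization, none larger than 0.06. Equal totals shifted the median of all genes by up to -0.14, in NCI-H1975 with siDYN-2. Among list genes 3 reversed. With 1 library left out, LYPD1 at 5 µM ran from -1.22 to 0.13 (without NCI-H1975 with DMSO), LY6D at 5 µM ran from -1.95 to 0.37 (without HCC827 with 5 µM), and SLPI was -0.09 with siDYN-2 alone. The cause was not tested. Read depth is unknown, and values below 1 FPKM (SPRR1A and KLK10 in NCI-H1975, TGM1, GRHL3) are the least certain.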
